A study of Lens culinaris with 50 samples.

Results

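The comparison described here sets the embryo of lentil (Lens culinaris, cultivar CDC Gold) at the torpedo stage against the seed coat of the same stage. It rests on 4 of the 50 libraries of the series, 2 of embryo and 2 of seed coat, chosen by their labels for tissue and stage. Messenger RNA was sequenced from embryo, seed coat and whole seed at 8 stages of embryo development, and from the unfertilized ovule. Both groups came from untreated plants of 1 genotype, grown in chambers under long days, whose flowers had been emasculated and pollinated by hand. Embryos were dissected out under a microscope, and the seed coat left after their removal was the other sample. The labels do not mention endosperm, so whether a sample held any cannot be told. They give neither the plants nor the seeds pooled per library, so the spread between replicate libraries may be technical. The p-values and standard errors rest on 1 spread per gene pooled over all 50 libraries, not on the torpedo replicates alone.

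The seed coat is maternal tissue that encloses the embryo and passes sugars and amino acids to it. At the torpedo stage of plant embryos the cotyledons lengthen. In legumes the cotyledons later become the main store of protein and starch. The table pairs 0 gene identifiers with names, so tissue markers could not be looked up, the labels of the tissues could not be checked against them, and genes are described by identifier, level and pattern. The digit after 2RBY in an identifier is taken as its chromosome tag.

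The embryo libraries held 21393953 and 22557299 reads, and the seed coat libraries 25088042 and 22109439. Genes at 0 made up 55.0% and 48.02% of the table in embryo, against 30.3% and 19.4% in seed coat, where replicate 2 had the lower share. The median over the 50 libraries was 45.6%. The Spearman correlation across the 29440 tested genes was 0.975 between the embryo replicates and 0.936 between the seed coat replicates. Between the tissues it lay between 0.786 and 0.853. In seed coat, 8708 genes had reads in replicate 2 and none in replicate 1, with a median of 2 reads. The reverse held for 2398 genes. In embryo these numbers were 5561 and 1477. Among tested genes, reads in replicate 2 alone were found for 492 in seed coat and 2479 in embryo. The 8708 genes took 0.0831% of the reads of replicate 2, and 21 of them reached 10 normalized reads (reads divided by the authors' factor for the library). Intervals and floors in this text cover counting error only.

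Embryo and seed coat differed in a large part of the transcriptome. By limma, at an adjusted p under 0.05 and at least 2-fold, 12181 genes differed, 41.4% of those tested. Embryo had the higher level for 4055 of them (13.8%) and seed coat for 8126 (27.6%). Since seed coat replicate 2 held many low genes that replicate 1 lacked, agreement was also required. The lowest library of the higher tissue had to be at least 2-fold above the highest library of the other, each value taken + 1. This left 8830 genes (30% of those tested), of which 2452 had the higher value in embryo (8.33%) and 6378 in seed coat (21.7%). Agreement failed for 1603 embryo-high and 1748 seed coat-high calls. It also depended on the highest library of the other tissue, so a shortfall can come from either tissue. Of the seed coat-high genes that failed, 1252 fell short in seed coat replicate 1 alone, 317 in replicate 2 alone and 179 in both. On the embryo-high side, 155 fell short in embryo replicate 1 alone, 793 in replicate 2 alone and 655 in both. Near the threshold, 227 embryo-high and 289 seed coat-high genes were within 0.1 log2 units inside it, and 251 and 268 were as close outside it. In bulk tissue, fewer cells of a type and less RNA per cell cannot be told apart.

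The number of seed coat-high calls depended on seed coat replicate 2, among other libraries, and the balance of the calls on the scaling. Without that replicate 2924 genes were called toward embryo and 4730 toward seed coat. Of the 6378 agreeing seed coat-high genes, 3947 were also called then, which is 61.9%, and of those with at least 100 normalized reads 94.0%. Of the 2452 embryo-high genes 87.7% were also called. The embryo-high share of the calls was 33.3% with the deposited scaling and 54.5% with quantile scaling. Among the agreeing genes these shares were 27.8% and 53.0%. The median log2 difference over the tested genes shifted toward embryo by 0.55 with quantile scaling and by 0.16 with TMM scaling.

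**Figure D1:**
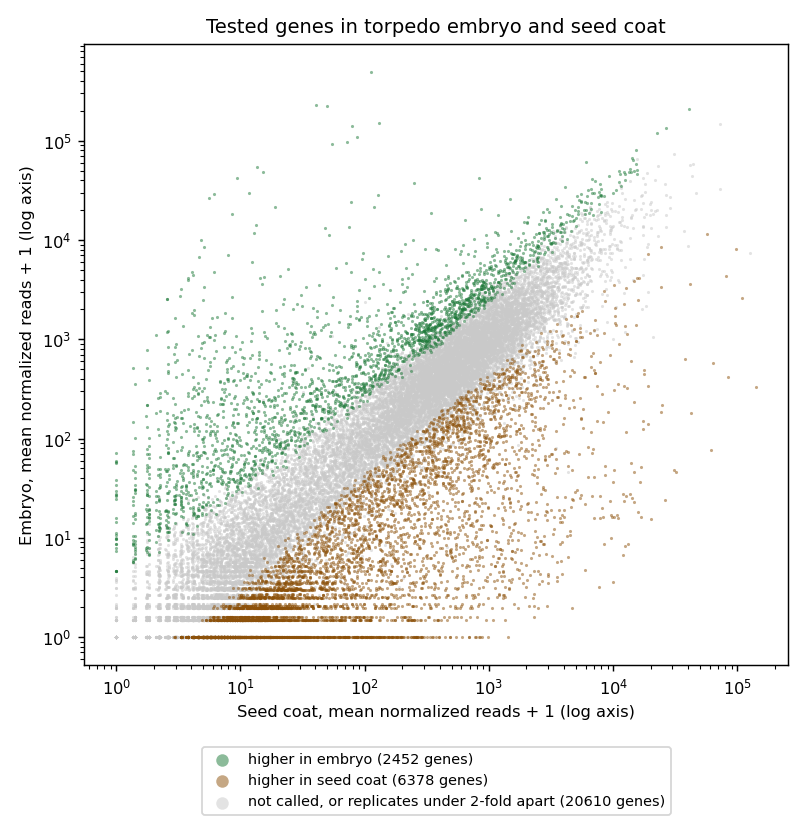
Mean normalized reads + 1 of each of the 29440 tested genes in torpedo embryo (vertical log axis) and seed coat (horizontal log axis). Green points are the 2452 genes called higher in embryo and brown points the 6378 called higher in seed coat, both with agreeing replicates. The brown points crowd at the lower left, where the seed coat holds few reads, and single green points stand alone at the top.

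The surplus of seed coat-high genes lay mostly among genes with few reads. The median level of the agreeing embryo-high genes was 566 normalized reads in embryo, beside 67.2 in seed coat. That of the agreeing seed coat-high genes was 1.64 in embryo, beside 43.2 in seed coat. Of the 2452 embryo-high genes 572 stayed under 100 normalized reads in embryo, which is 23.3%, and of the 6378 seed coat-high genes 3926 did so in seed coat, which is 61.6%. The fitted median fold was 5.61 for the embryo-high and 8.12 for the seed coat-high genes. A total of 26 and 1681 of them were at 0 in both libraries of the other tissue. With these genes set to the bound given by 3 reads per library, the medians were 5.58 and 6.72.

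Among genes with many reads the balance lay with the embryo. Of the 415 tested genes that reached 10000 normalized reads in either tissue, 160 had more in embryo and 67 more in seed coat. From 1000 to 10000 normalized reads the numbers were 827 and 660 of 5445 genes. That band turned to 692 and 710 with quantile scaling, whereas above 10000 the embryo still led with 105 and 80. From 100 to 1000 normalized reads 893 genes were higher in embryo and 1725 in seed coat, and from 10 to 100 the numbers were 529 and 2519, which became 1172 and 1080 with quantile scaling and 455 and 1549 without seed coat replicate 2. Under 10 normalized reads they were 43 and 1407, which became 509 and 34 with quantile scaling and 36 and 293 without seed coat replicate 2. Reads are not corrected for gene length, since no lengths were given, so levels are compared between tissues and not between genes.

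**Figure D2:**
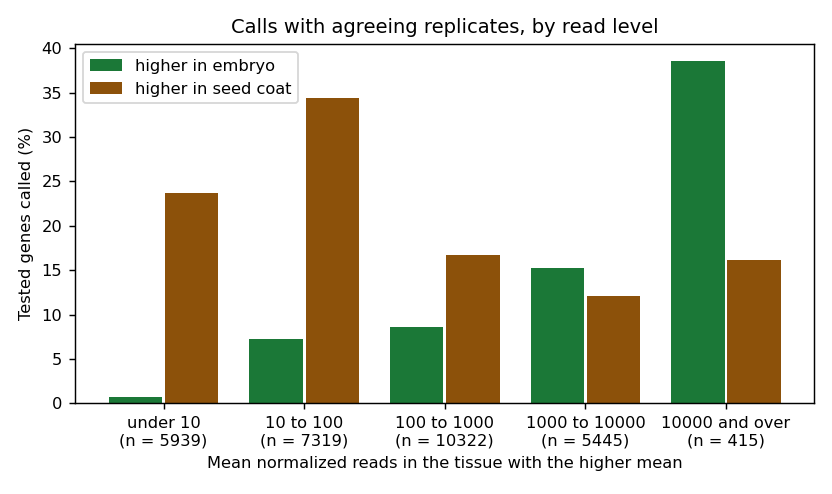
Share of tested genes called with agreeing replicates (vertical axis, percent), by the mean normalized reads in the tissue with the higher mean (horizontal axis, n is the number of tested genes). Bars for genes higher in embryo climb to 38.6% above 10000 normalized reads, and those for genes higher in seed coat peak at 34.4% between 10 and 100.

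The embryo also put more of its reads into a few genes. The 10 genes with the most reads took 9.13% and 7.73% of the reads of the embryo libraries, against 4.96% and 6.02% in seed coat. The agreeing embryo-high genes together held 36.3% of the normalized reads in embryo and 7.84% in seed coat. The agreeing seed coat-high genes held 1.505% in embryo and 22.3% in seed coat. With 2 libraries against 2, an exact permutation test could not pass 0.05, so no test was made on these shares.

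The 6 embryo-high genes with the largest fold among those with at least 1000 normalized reads all carried the tag of chromosome 3. Lcu.2RBY.3g073510 had 243640 and 218377 normalized reads in embryo, against 48.7 and 29.7 in seed coat. Its log2 difference was 12.53 (SE 1.01, limma adjusted p = 4.98e-11). Its neighbour in the numbering, Lcu.2RBY.3g073520, had 43855 and 41501 in embryo, against 11.8 and 4.96 in seed coat (log2 difference 12.25, SE 0.92, limma adjusted p = 1.18e-11). For both genes the embryo replicates lay close together and the seed coat held traces.

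The other 4 genes stood in 2 pairs in the numbering, and the pairs lay apart from each other. Lcu.2RBY.3g002270 had 572168 and 409244 normalized reads in embryo, against 123 and 97.5 in seed coat (log2 difference 12.10, SE 1.04, limma adjusted p = 1.77e-10). It had the most reads of any gene in both embryo libraries, 2.32% and 1.86% of the total. Lcu.2RBY.3g002280 had 255232 and 197910 in embryo, against 61.9 and 36.3 in seed coat (log2 difference 12.18, SE 0.85, limma adjusted p = 3.10e-12). Lcu.2RBY.3g002860 had 36112 and 22515 in embryo, against 4.42 and 5.78 in seed coat (log2 difference 12.20, SE 1.01). Lcu.2RBY.3g002890 had 33731 and 19696 in embryo, against 5.90 and 3.30 in seed coat (log2 difference 12.21, SE 1.37). In the last 2 genes the seed coat counts were 4 to 8 reads per library. Neighbouring genes can be copies of each other that share reads, and no source used here states how reads matching several places were counted.

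These 6 genes had their highest embryo mean at the globular stage, before torpedo. Lcu.2RBY.3g002270 averaged 7678 normalized reads in embryo at zygote, 412102 at quadrant, 1068572 at globular, 802777 at heart, 490706 at torpedo, 334113 at early bent, 3748 at late bent and 30.3 at mature. Lcu.2RBY.3g073510 averaged 526117 at globular, 231009 at torpedo, 263 at late bent and 6.73 at mature. The interaction test found no called difference between the tissue contrast at torpedo and that at heart or early bent for any of the 6 genes. The seed coat traces were highest at globular too, at 669 for Lcu.2RBY.3g002270 and 277 for Lcu.2RBY.3g073510.

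**Figure D3:**
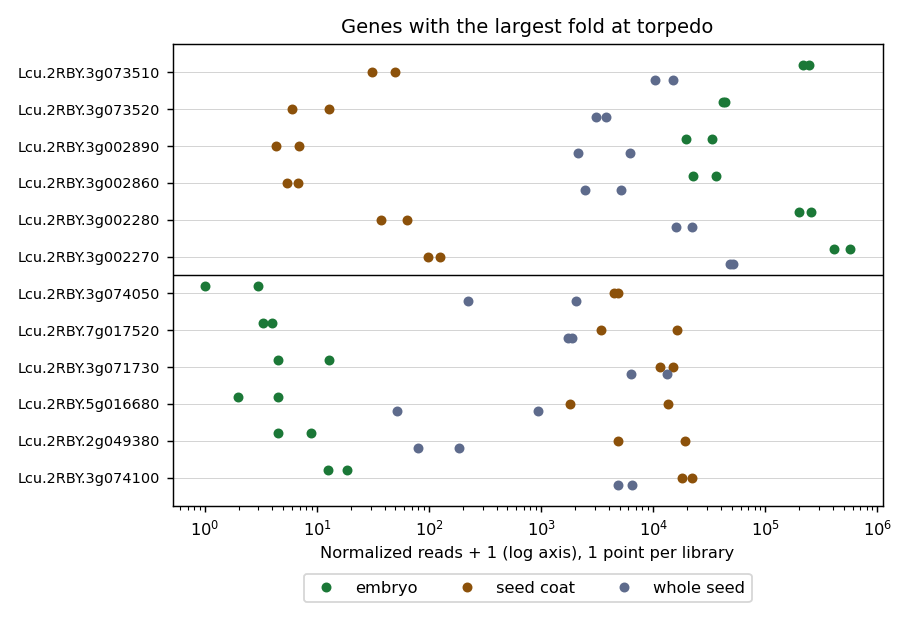
Normalized reads + 1 (horizontal log axis) in each torpedo library for the 6 genes with the largest fold toward embryo (above the line) and the 6 toward seed coat (below it), 1 point per library. In the upper genes embryo and seed coat stand at opposite ends with the whole seed between, and in the lower ones the seed coat replicates are often far apart.

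Among the 5 agreeing embryo-high genes with the most reads, 2 followed other courses. Lcu.2RBY.5g050090 had 134601 and 169644 normalized reads in embryo, against 166 and 91.7 in seed coat (log2 difference 10.25, SE 0.82, limma adjusted p = 4.77e-11). Its embryo mean stood at 29172 at globular, 66162 at heart, 152122 at torpedo, 606154 at early bent and 2069026 at late bent, so the torpedo value lay between lower values before it and higher values after it. Lcu.2RBY.4g062690 had 301121 and 117804 in embryo, against 36923 and 44370 in seed coat. Its log2 difference was 2.22 (SE 0.46, limma adjusted p = 1.88e-04), and the adjusted p was 0.0587 when the spread came from the 4 torpedo libraries alone. The 5 genes, which include 3 of those above, took 6.11% and 5.05% of the normalized reads in embryo, against 0.202% and 0.244% in seed coat.

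Seed coat-high genes with the largest folds were nearly silent in embryo, and several differed widely between the seed coat replicates. Lcu.2RBY.3g074050 had 0 and 1.96 normalized reads in embryo, against 4799 and 4489 in seed coat (limma adjusted p = 1.27e-08). Over its 2 embryo reads the ratio of seed coat to embryo was 4397, with a 95% counting interval of 1217 to 36315. Lcu.2RBY.3g071730 had 3.46 and 11.7 in embryo, against 11476 and 15010 in seed coat (log2 difference -10.77, SE 1.12, limma adjusted p = 6.96e-09). Lcu.2RBY.3g074100 had 11.5 and 17.6 in embryo, against 17943 and 22291 in seed coat (log2 difference -10.36, SE 1.07, limma adjusted p = 5.80e-09). In these 3 genes the seed coat replicates were alike.

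In the other 3 the seed coat replicates stood apart. Lcu.2RBY.7g017520 had 2.30 and 2.93 normalized reads in embryo, against 3398 and 16353 in seed coat (log2 difference -11.01, SE 0.95, limma adjusted p = 1.44e-10). Lcu.2RBY.5g016680 had 3.46 and 0.98 in embryo, against 1815 and 13432 in seed coat (log2 difference -10.70, SE 1.39, limma adjusted p = 2.39e-07). Lcu.2RBY.2g049380 had 3.46 and 7.82 in embryo, against 4804 and 19031 in seed coat (log2 difference -10.57, SE 1.33, limma adjusted p = 1.80e-07). In each, replicate 2 was the higher seed coat library, yet replicate 1 alone lay far above both embryo libraries.

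The 5 agreeing seed coat-high genes with the most reads had smaller folds. Lcu.2RBY.2g093830 had 499 and 168 normalized reads in embryo, against 218225 and 66096 in seed coat (log2 difference -8.69, SE 0.58, limma adjusted p = 5.15e-13). It led seed coat replicate 1 with 1.18% of its reads. Lcu.2RBY.2g010940 had 194 and 630 in embryo, against 67573 and 99824 in seed coat (log2 difference -7.87, SE 0.62, limma adjusted p = 1.87e-11). Lcu.2RBY.7g077270 had 10074 and 6308 in embryo, against 130061 and 63765 in seed coat (log2 difference -3.51, SE 0.45, limma adjusted p = 1.47e-07). These 3 were abundant in both seed coat replicates. Lcu.2RBY.2g004620, which is not among the 5 genes, led seed coat replicate 2 with 1.27% of its reads.

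The remaining pair of agreeing genes was far higher in seed coat replicate 2. Lcu.2RBY.7g073370 had 2755 and 2420 normalized reads in embryo, against 27443 and 191365 in seed coat (log2 difference -4.81, SE 0.53, limma adjusted p = 1.10e-08). Lcu.2RBY.6g065970 had 4736 and 4006 in embryo, against 24713 and 136888 in seed coat (log2 difference -3.74, SE 0.43, limma adjusted p = 1.98e-08). The whole seed at torpedo held 20697 and 38565 of the first and 20448 and 33990 of the second, near the level of seed coat replicate 1.

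Some genes had no read in 1 tissue. Lcu.2RBY.4g066300 had 0 reads in both embryo libraries, against 664 and 1284 normalized reads in seed coat, at least 305-fold higher over a floor of 3 reads per library (limma adjusted p = 1.35e-15). Lcu.2RBY.5g036700 also had 0 in embryo, against 35.4 and 2794 in seed coat, at least 443-fold higher on the group means (limma adjusted p = 3.17e-06), with nearly all of its reads in replicate 2. In the other direction levels were lower. Lcu.2RBY.2g025760 had 51.9 and 90.9 in embryo and 0 in seed coat, at least 30.4-fold higher (limma adjusted p = 6.54e-07). Lcu.2RBY.5g071260 had 20.7 and 94.9 in embryo and 0 in seed coat, at least 24.6-fold higher (limma adjusted p = 6.18e-08).

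Many of the tissue differences at torpedo were also called at other stages, and the highest count was at early bent in both directions. The libraries of those stages are separate, but the calls are not independent. All stages shared the same fit, the same read filter and the same pooled spread per gene. A gene with a small pooled spread is therefore called more easily at every stage. The background shares given below cover all tested genes, so they do not allow for this. Of the 2452 embryo-high genes, 1675 were called higher in embryo at heart (68.3%, where 11.1% of all tested genes were) and 1929 at early bent (78.7%, background 13.8%). These made up 51.2% of the heart list and 47.6% of the early bent list. At zygote 871 were called (35.5%, background 9.9%), at quadrant 1312 (53.5%, background 16.5%), at globular 1543 (62.9%, background 12.1%), at late bent 1573 (64.2%, background 17.7%) and at mature 1135 (46.3%, background 18.3%). Of the 6378 seed coat-high genes, 2803 were called higher in seed coat at heart (43.9%, background 16%) and 4605 at early bent (72.2%, background 27.7%). These made up 59.7% of the heart list and 56.5% of the early bent list. At zygote 1040 were called (16.3%, background 8.28%), at quadrant 2585 (40.5%, background 20.6%), at globular 2605 (40.8%, background 15%), at late bent 3149 (49.4%, background 23.1%) and at mature 2443 (38.3%, background 21.9%). The opposite direction was called at some stage for 559 of the embryo-high and 1077 of the seed coat-high genes, for which no background was counted. Among embryo-high genes the count was highest at quadrant, at 277 (11.3%, background 20.6%). It was 152 at zygote, 27 at heart and 244 at mature. Among seed coat-high genes it was highest at mature, at 414 (6.49%, background 18.3%). It was 409 at zygote (6.41%, background 9.9%), 340 at quadrant (5.33%, background 16.5%) and 65 at heart (1.02%, background 11.1%).

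At each of the 8 stages 287 of the embryo-high and 453 of the seed coat-high genes were called in the same direction. At torpedo alone 67 and 843 were called. No share over all tested genes was counted for these numbers, so the directions are not compared. A call at torpedo alone does not show that the difference was larger there, which the interaction tests below address. Embryo-high genes stood at a median of 563 normalized reads in embryo and 108 in seed coat at heart, and 541 and 77.7 at early bent. For the genes higher in seed coat the medians were 2.13 in embryo and 13.1 in seed coat at heart, and 3.53 and 38.9 at early bent. The medians at torpedo come from the libraries that chose the genes, so their excess over those of other stages is no finding. The highest embryo mean fell at quadrant for 670 of the embryo-high genes (27.3%, where that of 16.7% of all tested genes did). It fell at torpedo, where these genes were chosen, for 254 (10.4%, background 3.59%).

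**Figure D4:**
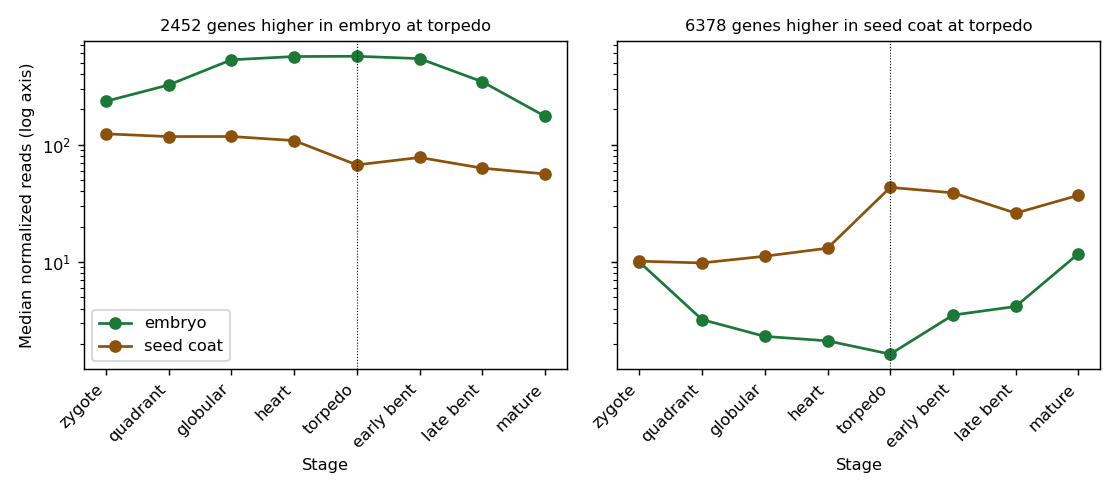
Median normalized reads (vertical log axis) over the 8 stages in embryo and in seed coat for the genes higher in embryo (left) and in seed coat (right) at torpedo, marked by the dotted line. On the left the embryo median is between 528 and 566 from globular to early bent. On the right the seed coat median is 13.1 at heart and 43.2 at torpedo, where the genes were chosen.

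Whether the tissue difference at torpedo differed from that of the stages around it was tested as an interaction. Against heart, 1053 genes shifted toward embryo (3.58% of those tested) and 1503 toward seed coat (5.11%), together 8.68%. Against early bent the numbers were 890 (3.02%) and 832 (2.83%), together 5.85%. Without seed coat replicate 2 these numbers were 488, 571, 509 and 423. TMM scaling turned the balance against heart to 1622 and 1253, and quantile scaling to 1455 and 1263. Of the agreeing embryo-high genes, 306 had a larger difference than at heart, 179 a larger one than at early bent, and 11 a larger one than at both. A smaller difference was called for 64 against heart, 49 against early bent and 1 against both. Of the agreeing seed coat-high genes 903, 413 and 146 had a larger difference and 147, 175 and 5 a smaller one. The genes were chosen for their torpedo difference, which favours larger ones, so nothing is read from this balance.

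The difference of 3 embryo-high genes exceeded that at both neighbouring stages by the widest margin. Lcu.2RBY.5g060480 had 8622 and 7047 normalized reads in embryo, against 295 and 94.2 in seed coat. Its embryo means were 8119 at heart, 7835 at torpedo and 2933 at early bent, and its seed coat means 589, 195 and 686. Lcu.2RBY.7g046510 had 867 and 817 in embryo, against 36.9 and 116 in seed coat. Its embryo means were 1.73 at globular, 31.9 at heart, 842 at torpedo and 716 at early bent, while its seed coat mean was 76.3 at torpedo, 401 at early bent and 6187 at late bent. Lcu.2RBY.1g060750 had 579 and 331 in embryo, against 37.6 and 4.96 in seed coat, with seed coat means of 140 at heart and 68.6 at early bent. In the first and the last of these genes the seed coat mean at torpedo was below that of both neighbouring stages, and seed coat replicate 2 was the lower library.

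On the seed coat side, 117 genes with at least 100 normalized reads had a larger difference at torpedo than at both heart and early bent. Their median in seed coat was 275 in replicate 1 and 1245 in replicate 2 at torpedo, where they were chosen, against 12.4 and 13.8 at heart and 24.5 and 21.01 at early bent. In embryo it was 5.76 and 4.89 at torpedo. Seed coat replicate 2 was the higher replicate for 115 of the 117 genes, by a median of 4.82-fold. The median was 1.48-fold over the 2452 seed coat-high genes of that level. Over all 6378 agreeing seed coat-high genes replicate 2 was higher for 4713, with a median ratio of 1.70 to replicate 1. Without replicate 2, 114 of the 117 were still called at torpedo, 60 were larger than at heart, 39 larger than at early bent and 24 met all 3 conditions. Without replicate 1, 116 met all 3.

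The whole seed libraries held the 117 genes at a lower level at torpedo. These libraries entered the choice of the genes only through the pooled spread and the read filter. Their median was 58.2 and 183 in the 2 whole seed libraries, and the whole seed level was 18.9% of the seed coat mean at the median gene. For the 1897 seed coat-high genes of at least 100 normalized reads that were not larger than at heart it was 80.1%. At heart, where embryo and seed coat held medians under 15, the whole seed held 216 and 199 of the same genes. At early bent it held 24.5 and 18.9. No test was made on these medians.

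The 3 genes with the widest margin in this set illustrate it. Lcu.2RBY.1g005960 had 1.15 and 0 normalized reads in embryo, against 605 and 4018 in seed coat. The ratio of seed coat to embryo was 4186, with a 95% counting interval of 751 to 165368 over 1 embryo read. Its seed coat mean was 0 at heart, 8.85 at early bent, 6083 at late bent and 20471 at mature. Lcu.2RBY.7g075740 had 0 in both embryo libraries, against 434 and 1245 in seed coat, at least 263-fold higher. Its seed coat mean was at most 5.02 at every other stage, so torpedo was the 1 stage with a high value. Lcu.2RBY.2g049380, given above among the largest folds, had a seed coat mean of 0 at heart, 20.0 at early bent and 79686 at mature. The whole seed at torpedo held 79.0 and 183 of it, against 4804 and 19031 in seed coat.

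**Figure D5:**
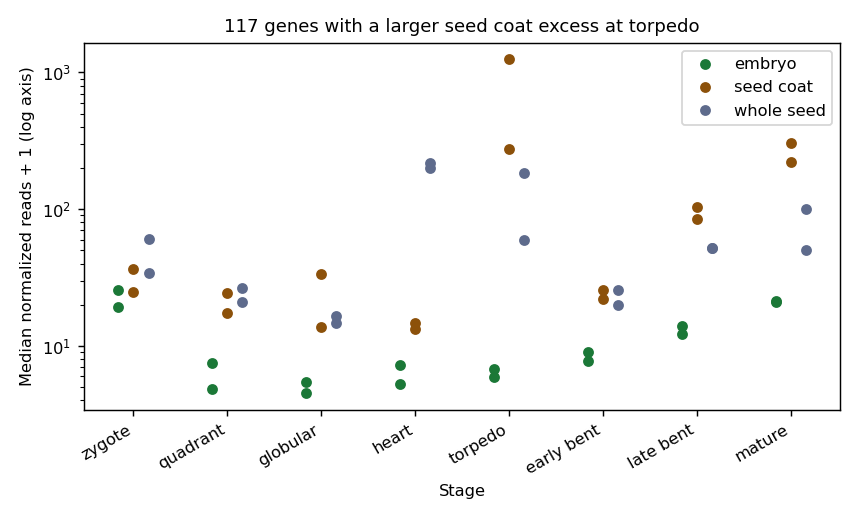
Median normalized reads + 1 (vertical log axis) of the 117 genes with a larger seed coat excess at torpedo than at heart and early bent, over the 8 stages. Each point is 1 library of embryo, seed coat or whole seed. The torpedo seed coat points stand high and apart from each other, and the heart whole seed points are the highest of that stage.

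The whole seed resembled seed coat more than embryo. Its libraries had Spearman correlations across genes of 0.876 to 0.897 with embryo, 0.970 and 0.976 with seed coat replicate 1, and 0.903 and 0.926 with seed coat replicate 2. The whole seed mean lay between the tissue means for 2238 of the 2452 embryo-high genes (91.3%) and for 5177 of the 6378 seed coat-high genes (81.2%). It was above both tissues for 3 embryo-high and 1180 seed coat-high genes, and below both for 211 and 21. For the embryo-high genes with at least 100 normalized reads the whole seed held a median of 33.1% of the embryo mean, with quartiles of 17.9% and 42.5%. For the seed coat-high genes of that level it held 71.9% of the seed coat mean, with quartiles of 45.8% and 96.0%.

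Among agreeing genes that reached 1000 normalized reads, the 2 of each direction with the highest whole seed level relative to their higher tissue all had less in seed coat replicate 2 than in replicate 1. Lcu.2RBY.2g017770 had 20.7 and 0.98 normalized reads in embryo, against 2877 and 238 in seed coat, and 4626 and 5047 in whole seed. Lcu.2RBY.5g065110 had 20.7 and 27.4 in embryo, against 2358 and 236 in seed coat, and 3202 and 3327 in whole seed. In both, seed coat replicate 2 was the low library. On the embryo side Lcu.2RBY.1g071330 had 1921 and 2009 in embryo, against 956 and 259 in seed coat, and 1384 and 1180 in whole seed. Lcu.2RBY.6g002160 had 4307 and 4135 in embryo, against 1985 and 1026 in seed coat, and 2482 and 2789 in whole seed. The limma adjusted p of these 2 was 0.00236 and 0.0352, and without seed coat replicate 2 it was 0.169 and 0.284, which ended both calls.

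A total of 17259 tested genes, 58.6%, were not called, and 3088 of these had a log2 difference under 0.2 in size. A missed call does not show that the tissues were alike. Lcu.2RBY.2g017880 had 15495 and 24531 normalized reads in embryo, against 18517 and 21510 in seed coat (log2 difference -0.03, SE 0.50). Lcu.2RBY.1g065080 had 19740 and 16990 in embryo, against 22955 and 13724 in seed coat (log2 difference 0.05, SE 0.36). Lcu.2RBY.2g074850 had 14950 and 20636 in embryo, against 16839 and 23029 in seed coat (log2 difference -0.16, SE 0.55). Lcu.2RBY.6g019720 had 17039 and 22799 in embryo, against 35006 and 9635 in seed coat, so its near-zero log2 difference of 0.10 (SE 0.53) came from seed coat libraries on either side of the embryo.

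Genes seen in 1 seed coat replicate and at 0 in the other stayed low. The highest in replicate 2 was Lcu.2RBY.1g024810, with 0 in both embryo libraries and 0 and 66.9 normalized reads in seed coat. It was called (limma adjusted p = 0.0414), yet its call rests on 1 library, it failed agreement, and the call was lost under 10 alternatives. Lcu.2RBY.5g014770 and Lcu.2RBY.2g078080 reached 28.9 and 18.998 in replicate 2, with limma adjusted p-values of 0.0936 and 0.0573. In replicate 1 the highest was Lcu.2RBY.7g074790 at 39.8, with 0 in embryo and limma adjusted p = 0.0129, a call lost under 4 alternatives, followed by Lcu.2RBY.5g064520 at 19.2 and Lcu.2RBY.1g077140 at 16.96, which were not called.

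Calls were found under all chromosome tags. Per tag, 7.60% to 8.78% of the tested genes were embryo-high and 19.4% to 23.3% seed coat-high, with agreement. Runs of at least 4 tested genes next to each other in the numbering and called in the same direction with agreement numbered 8 for embryo, holding 33 genes, and 100 for seed coat, holding 467. More genes were seed coat-high (21.7% of those tested) than embryo-high (8.33%). No number of runs expected from these shares was computed, so the directions are not compared. The longest embryo run had 5 genes, from Lcu.2RBY.3g002240 to Lcu.2RBY.3g002280, and included the gene with the most reads in embryo. Lcu.2RBY.3g002240 had 838 and 1254 normalized reads in embryo, against 5.90 and 3.30 in seed coat. Its neighbour Lcu.2RBY.3g002250 had 17.3 and 1.96 in embryo and 0 in seed coat, so its place in the run rests on few reads. Lcu.2RBY.3g002260 had 118 and 148 in embryo, against 0 and 5.78 in seed coat. At globular the embryo means of these 3 genes were 2541, 60.9 and 311. On the seed coat side 2 runs had 8 genes, the longest length. One, from Lcu.2RBY.7g004830 to Lcu.2RBY.7g004940, had seed coat means from 4.78 to 4666. The other, from Lcu.2RBY.5g030880 to Lcu.2RBY.5g030990, had seed coat means from 9.19 to 7363. Both end genes of the run on tag 5 were low, with 0 and 0.98 in embryo, against 4.42 and 21.5 in seed coat for the first and 5.16 and 13.2 for the last. Their limma adjusted p-values were 0.0287 and 0.0235, and both calls were lost without seed coat replicate 2.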

How the data were processed

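Per the submitters' processing notes, CASAVA, Trimmomatic, featureCounts and DESeq2 were used, with no version or role given; no source used here names an aligner, genome build or annotation. Per the labels' protocols, libraries were made with a low-input kit. The authors deposited 1 signal value per gene and library, a read count divided by 1 factor per library. Whole reads were recovered for 100% of values within 0.001 reads, by division with the smallest value above 0 of the library.

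The members and lists were chosen with earlier results of these data known. Values were analysed as log2(normalized reads + 1) with limma 3.58.1 (trend, robust; R 4.3.3), in 1 fit over 50 libraries over 25 groups (residual degrees of freedom: 25). A fold on this scale understates changes of low genes. The test covered 29440 of 58243 genes, those that reached 10 normalized reads in 2 or more libraries, with Benjamini-Hochberg adjustment over all of them. A call needed an adjusted p under 0.05 and a fold of 2. The fit was checked on simulated data with 1 common spread for all genes and libraries. That check does not cover libraries that differ in spread, nor changes in low genes. Named genes were taken by fixed ranks among agreeing calls: the largest fold with at least 1000 normalized reads, the highest level, the smaller of 2 interactions, a lower tissue at 0, the whole seed level and the ends of the longest runs. To these came the highest genes of 1 seed coat replicate and the highest uncalled genes with a log2 difference under 0.2. The run genes Lcu.2RBY.3g002250 and Lcu.2RBY.3g002260, the second seed coat run and the 117 genes of the interactions were singled out after their values were seen. Alternatives included edgeR 4.0.16 and DESeq2 1.42.0 on recovered reads with the deposited factors; edgeR called 3890 embryo-high and 7482 seed coat-high genes. No genome or annotation was used, so no sequences are shown.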

Additional observations from a re-analysis of the deposited data

Results flagged for a closer look

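The tissue difference of 17 named genes differed between torpedo and a neighbouring stage by the interaction test in limma (adjusted p under 0.05). Values are the log2 difference of embryo minus seed coat at torpedo less that at the other stage, on the log2(normalized reads + 1) scale. Where a group is at 0 they depend on the added 1 and are no bound.

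The tissue difference shifted toward embryo for 4 genes. Against heart the shift was 3.48 for Lcu.2RBY.1g060750, 4.25 for Lcu.2RBY.7g046510, 1.76 for Lcu.2RBY.5g060480 and 2.44 for Lcu.2RBY.7g077270. Against early bent it was 3.31 for Lcu.2RBY.1g060750, 2.69 for Lcu.2RBY.7g046510 and 3.52 for Lcu.2RBY.5g060480. Lcu.2RBY.7g077270 was higher in seed coat at both stages, with embryo means of 2337 at heart and 8191 at torpedo.

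The other 13 shifted toward seed coat against heart. The shift was -5.42 for Lcu.2RBY.2g025760, which averaged 3032 normalized reads in embryo at heart and 71.4 at torpedo. It was -9.62 for Lcu.2RBY.3g074050, -5.99 for Lcu.2RBY.7g017520, -6.59 for Lcu.2RBY.3g071730 and -5.52 for Lcu.2RBY.3g074100. It was -3.38 for Lcu.2RBY.7g073370, -3.51 for Lcu.2RBY.6g065970, -6.66 for Lcu.2RBY.5g036700 and -3.04 for Lcu.2RBY.4g066300. In 4 genes the shift was large against both stages. It was -9.80 against heart and -7.79 against early bent for Lcu.2RBY.5g016680, and -10.57 and -9.31 for Lcu.2RBY.2g049380. It was -10.05 and -9.42 for Lcu.2RBY.1g005960, and -8.53 and -8.81 for Lcu.2RBY.7g075740.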

How the results depend on the processing

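Called genes numbered 7654 to 13396 when 1 torpedo library was left out (2924 to 4666 embryo-high, 4730 to 8730 seed coat-high), and agreeing genes 2430 to 4230 and 4465 to 8312. Over 1 left-out library of torpedo or the other stage, the interaction against heart gave 488 to 2599 genes toward embryo and 571 to 3087 toward seed coat, and that against early bent 441 to 2053 and 423 to 1680. Besides seed coat replicate 2, leaving out embryo replicate 1 gave 5354 seed coat-high calls, 590 and 850 against heart, and 533 toward embryo against early bent. Leaving out seed coat replicate 1 gave 4230 agreeing embryo-high genes, 2599 and 3087 against heart, and 2053 and 1680 against early bent. Of the other stages, leaving out embryo heart replicate 1 gave 684 and 836, seed coat heart replicate 1 696 and 954, seed coat heart replicate 2 611 and 879, embryo early bent replicate 2 550 and 494, and seed coat early bent replicate 2 441 toward embryo. The spread of the 4 torpedo libraries alone gave 7476 called genes (2356 and 5120). Library weights gave 8065, with 4789 seed coat-high (3997 agreeing), 1000 toward seed coat against heart, and 340 and 329 against early bent. Quantile scaling gave 4602 seed coat-high genes (3249 agreeing), and TMM scaling 1622 toward embryo against heart. Requiring 10 normalized reads in both replicates of 1 tissue gave 4154 agreeing seed coat-high genes, and a filter of 50 gave 4133. Chosen after seeing the data were 2 alternatives. Leaving out the 5 libraries whose share of genes at 0 was lowest, there were 7719 called genes, 4797 of them seed coat-high, 478 and 544 against heart, and 163 and 248 against early bent. Among genes with at least 100 normalized reads in either tissue there were 6761, with 3471 seed coat-high (2452 agreeing) and 957 toward seed coat against heart. The cause of these differences was not tested, except that fewer genes or samples enter some of the alternatives. With the replicate block 4064 and 8192 genes were called and 2449 and 6360 agreed, while Lcu.2RBY.1g024810 lost its call (limma adjusted p = 0.0522). The replicate differences of the tissues correlated at 0.208, which does not establish pairing. Of the 35 named agreeing genes, 30 were called under each alternative that could be run for them, and none turned sign. These were 18 alternatives, except 17 for Lcu.2RBY.2g025760 and Lcu.2RBY.5g071260, which had under 100 normalized reads. The 5 that lost calls were Lcu.2RBY.1g071330, Lcu.2RBY.4g062690, Lcu.2RBY.6g002160, Lcu.2RBY.5g030880 and Lcu.2RBY.5g030990. Counts of genes under 10 reads are limited by depth.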
